A study of Homo sapiens with 9 samples.

Results

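The HOX genes of the 4 human clusters were described in HT-29 cells, an established human colon adenocarcinoma line, after 5 days with or without 5-Aza. Every gene symbol made of HOXA, HOXB, HOXC or HOXD and a number was taken, which gave 39 of the 23284 symbols in the files. These were 11 HOXA, 10 HOXB, 9 HOXC and 9 HOXD genes. Paired-end RNA-Seq was run on 9 monolayer cultures, 3 in each group. The control cultures (0 µM) received the DMSO vehicle alone, and the others received 5 µM or 10 µM 5-Aza (5-aza-deoxycytidine), an analog of cytidine that enters the genome and traps the enzymes that methylate it. The design asks how the RNA level of each gene differs between 5 µM and 0 µM, between 10 µM and 5 µM, and between 10 µM and 0 µM. All groups share this cell line, so the values describe HT-29 cells and no other colon cells.

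HOX genes encode homeodomain transcription factors that give cells their position along the body axis. They lie side by side in 4 clusters, and genes with the same number in different clusters are paralogs. Low numbers (3′ end of a cluster) act towards the head and high numbers (5′ end) towards the tail, and adult tissues, the colon among them, keep a characteristic HOX pattern. Silent HOX genes are held by Polycomb complexes, and in tumour cells many of their CpG-rich promoters also carry DNA methylation.

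In GRCh37, the build called hg19 in the labels, the HOXA genes from HOXA2 to HOXA13 lie at chr7:27139973-27239710 and the HOXB genes at chr17:46605888-46806112, both on the minus strand. The HOXC genes lie at chr12:54332615-54449814 and the HOXD genes at chr2:176957449-177055635, both on the plus strand. The annotated spans of 22 of the 39 genes overlap another HOX gene on the same strand, counting every annotated transcript: 6 HOXA, 7 HOXB, 5 HOXC and 4 HOXD genes. HOXA9 overlaps HOXA10, HOXB3 covers HOXB4 and HOXB5, and HOXC4 covers HOXC5 and overlaps HOXC6. How the authors divided fragments among such genes is not given in the sources used here, so the level of each overlapping gene is uncertain by that share. The values of some, such as HOXA4, HOXA5, HOXB4 and HOXB5, could be read as whole fragments. Those of others, such as HOXA3, HOXA9, HOXA10 and HOXB3, could not.

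RefSeq promoters (GRCh38.p14, 250 bases before and 50 after a transcript start) were held for 20 of the 39 genes in 27 entries. Among the genes without an entry were HOXA5, HOXB2 to HOXB9, HOXB13, HOXC6, HOXC8 to HOXC13 and HOXD9. The stretch before the start is printed for the 4 genes with an entry that were called higher at 5 µM (HOXD1, HOXD8, HOXD10, HOXD11) and for HOXC4, which was called lower. CpG sites are where the enzymes trapped by 5-Aza place DNA methylation. Capitals mark CG, the CpG site, which reads the same on both strands. All 5 are on the plus strand, at chr2:176188418-176188667 (HOXD1), chr2:176129455-176129704 (HOXD8), chr2:176116528-176116777 (HOXD10), chr2:176107030-176107279 (HOXD11) and chr12:54016638-54016887 (HOXC4, the same start as the HOXC5 entry).
HOXD1: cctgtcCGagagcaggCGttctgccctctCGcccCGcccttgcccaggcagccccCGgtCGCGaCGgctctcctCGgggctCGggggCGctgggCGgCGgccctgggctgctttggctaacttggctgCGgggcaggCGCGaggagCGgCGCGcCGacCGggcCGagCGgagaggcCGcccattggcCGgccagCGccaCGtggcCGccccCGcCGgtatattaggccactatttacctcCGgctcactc
HOXD8: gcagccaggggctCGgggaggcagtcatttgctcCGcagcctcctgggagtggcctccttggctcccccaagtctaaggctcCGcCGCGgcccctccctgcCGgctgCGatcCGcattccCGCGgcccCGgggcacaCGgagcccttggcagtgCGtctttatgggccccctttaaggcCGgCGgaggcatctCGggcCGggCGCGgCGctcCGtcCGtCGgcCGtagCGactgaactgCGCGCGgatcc
HOXD10: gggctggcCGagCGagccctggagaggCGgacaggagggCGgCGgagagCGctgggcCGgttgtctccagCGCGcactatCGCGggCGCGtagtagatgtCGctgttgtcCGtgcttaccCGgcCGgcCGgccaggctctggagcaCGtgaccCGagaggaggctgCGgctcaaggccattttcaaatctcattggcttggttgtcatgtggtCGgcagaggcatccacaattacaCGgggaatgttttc
HOXD11: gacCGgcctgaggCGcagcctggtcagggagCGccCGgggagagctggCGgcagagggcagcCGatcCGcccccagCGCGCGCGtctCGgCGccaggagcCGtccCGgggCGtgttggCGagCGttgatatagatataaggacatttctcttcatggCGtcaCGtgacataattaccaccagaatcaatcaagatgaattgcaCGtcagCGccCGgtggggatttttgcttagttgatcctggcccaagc
HOXC4: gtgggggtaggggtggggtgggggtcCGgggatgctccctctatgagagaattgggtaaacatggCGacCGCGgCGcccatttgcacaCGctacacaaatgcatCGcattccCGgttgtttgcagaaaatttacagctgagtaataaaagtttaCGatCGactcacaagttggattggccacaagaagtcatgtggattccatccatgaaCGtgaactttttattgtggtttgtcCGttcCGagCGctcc

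These 250-base stretches hold 31 CpG sites before HOXD1, 28 before HOXD8, 23 each before HOXD10 and HOXD11, and 14 before HOXC4. Over the whole 300-base window, the 4 genes called higher had between 23 and 36 CpG sites, HOXC4 had 15, and the median of all 35116 promoters was 14. Among the 15 other genes with an entry, the richest entry of each held between 4 (HOXD4) and 44 (HOXA13) sites with a median of 24, and 8 of them held 23 or more. At least 1 CG stood in 96.0% of all promoters. Methylation itself was not measured in these files.

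Expression is given as FPKM, the authors' count of fragments per transcript length, scaled by library, which is a level per length. The FPKM values of a library summed to between 3.69e+09 and 5.91e+09, far more than such values normally do, so they are relative values only. Low FPKM values step in whole fragments, and 23 HOX genes could be read as whole fragments (within 0.02 of a whole number), while the other 16 were estimated from gene length. In the 23 genes, the FPKM of 1 fragment was between 0.853 (HOXD4) and 4.8 (HOXC12) times that predicted from length. Counts estimated from length can be off by such factors. The relative library normalizer ran from 1.00 to 2.14 in the control, from 2.29 to 2.57 at 5 µM and from 1.27 to 2.01 at 10 µM, so a fragment was worth more FPKM in each control culture than in any 5 µM culture. Median-of-ratios scaling gave factors from 0.994 to 1.09 in the control and 5 µM libraries, but 0.828 and 0.849 in 10 µM replicates 1 and 3 against 1.05 in replicate 2. The labels name no batch. All 10 colon epithelium markers (EPCAM, CDH1 and keratins among them) were above 0 in all 9 libraries, as the cell line label requires. A level in bulk RNA cannot tell fewer expressing cells from less RNA per cell.

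In the control, HT-29 cells carried a HOXA and HOXB pattern, with HOXC genes lower and HOXD genes near the limit of detection. HOXB9, a gene of the thoracic region and the mammary gland, was the highest at 1374290, 1429530 and 1311040 FPKM and exceeded 97.5% of all symbols. HOXB6 followed at 671081 ± 42715 FPKM (SD, n = 3) and HOXA10, known from the uterus and from leukaemia, at 454137 ± 45992 FPKM. The HOXB genes made up 60.8% ± 1.14 of the summed HOX FPKM (SD, n = 3), the HOXA genes 33.4% ± 1.38, the HOXC genes 5.51% ± 0.269 and the HOXD genes 0.281% ± 0.0117. All 11 HOXA genes and 9 of 10 HOXB genes were above 0 in every control replicate, as were 8 of 9 HOXC and 4 of 9 HOXD genes. HOXD1, HOXD10 and HOXD11 were listed at 0 in all 3 control replicates.

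**Figure D1:**
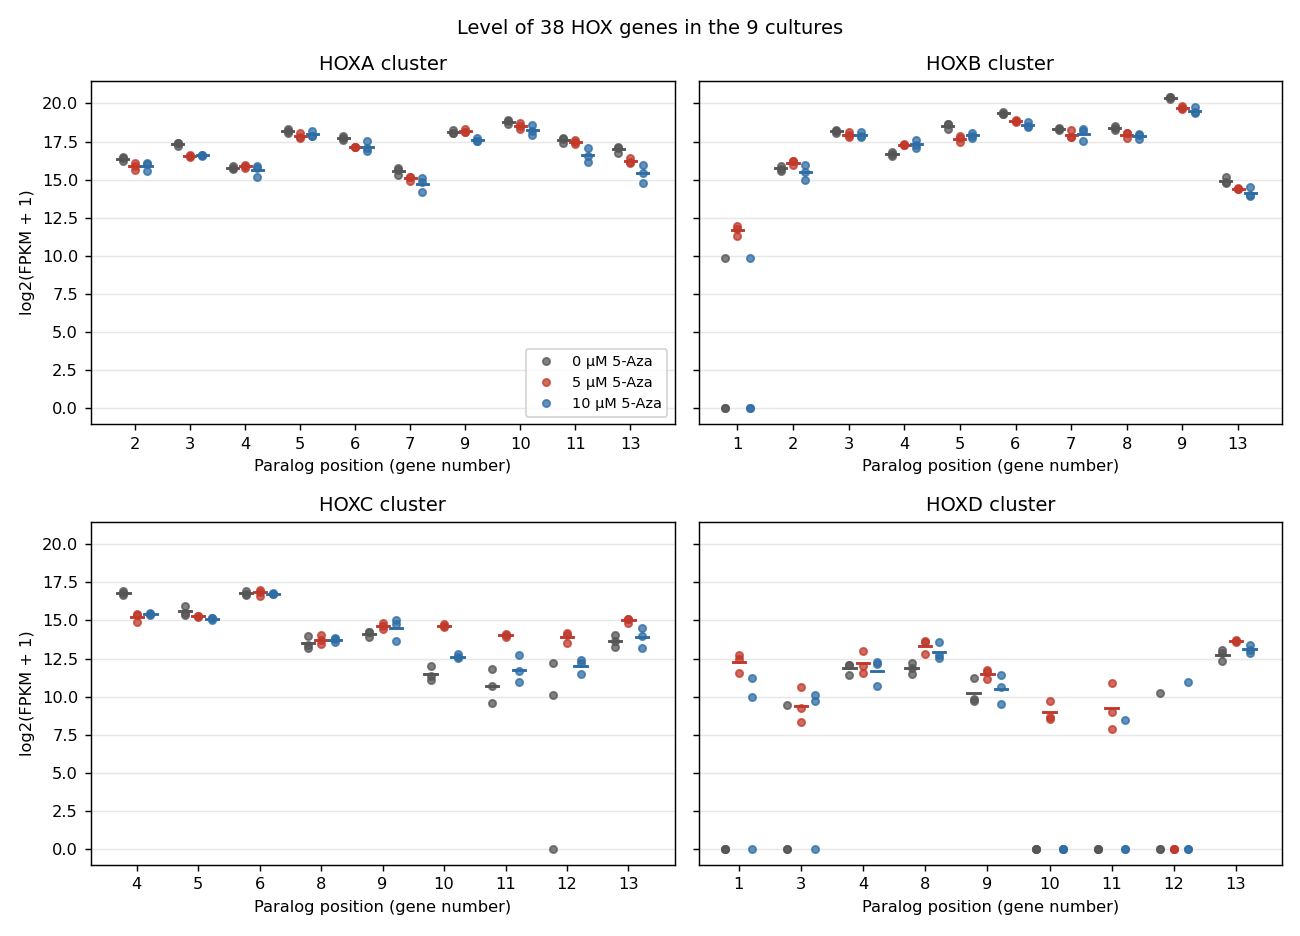
Level of 38 HOX genes on the log2(FPKM + 1) scale (vertical axis) by paralog position (horizontal axis), 1 panel per cluster, with 1 point per culture and a bar at the mean where no replicate was at 0. HOXA and HOXB genes other than HOXB1 stand high in all groups, while HOXC10 to HOXC13 and the HOXD genes are low in the control and several are higher at 5 µM.

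The control level also fell along the HOXC cluster. HOXC4 and HOXC6 stood at 113366 ± 10021 and 111675 ± 10447 FPKM (SD, n = 3), HOXC5 at 50554, HOXC9 at 17871 and HOXC8 at 11969 FPKM. The 4 genes at the 5′ end, HOXC10 to HOXC13, lie next to each other at chr12:54332615-54384063, and their means were 2964, 2018, 1964 and 13134 FPKM. In HOXA and HOXB, by contrast, the genes other than HOXB1 had control means above 20000 FPKM.

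Between 5 µM and 0 µM, the genes called up stood in the HOXC and HOXD clusters. Among the HOXA and HOXB genes, 9 passed the adjusted p as lower without reaching 2-fold. A gene was called when its adjusted p in limma (Benjamini-Hochberg) did not exceed 0.05 and its log2 difference went beyond 1 on the log2(FPKM + 1) scale, a change of more than 2-fold. Of the 39 HOX genes, 7 were called up (17.9%), against 14.1% of all 20051 genes tested. Of the HOX genes, HOXC4 alone was called down (2.56%), against 2.17% of all genes. The share of HOX genes called was thus close to the background in both directions. By the adjusted p alone, 11 HOX genes were higher (28.2%, against 21.3% of all genes) and 10 were lower (25.6%, against 17.7%). The 5 µM cultures lay above all controls for 13 HOX genes (33.3%, against 29.4%) and below them for 14 (35.9%, against 23.2%). The median log2 difference was 0.08 over the HOX genes and 0.14 over all genes tested.

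Split by cluster, the 7 calls up were 3 of 9 HOXC genes (HOXC10, HOXC11, HOXC13) and 4 of 9 HOXD genes (HOXD1, HOXD8, HOXD10, HOXD11), and none were among the 11 HOXA and 10 HOXB genes. The median log2 difference was -0.30 in HOXA, -0.41 in HOXB, 0.53 in HOXC and 1.49 in HOXD. By position, 5 of 16 genes numbered 9 to 13 were called up, 1 of 15 genes numbered 4 to 8 (HOXD8), and 1 of 8 genes numbered 1 to 3 (HOXD1). These shares were 31.2%, 6.67% and 12.5%, against 14.1% of all genes. Of the 5, HOXD10 and HOXD11 had fewer than 10 fragments in every 5 µM culture and lost the call with a pseudocount of 1000. No test was made of the differences between clusters or positions.

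The genes called up were low in the control, at 13134 FPKM or less. Below a control mean of 20000 FPKM, a limit chosen after the values were seen, 7 of 16 HOX genes were called up (43.8%), against 28% of the 8765 genes of that kind. At or above it, 0 of 23 HOX genes were called up, against 3.20% of 11286 genes. Of those 23, limma gave an unadjusted p under 0.05 with a higher level for HOXB2 and HOXB4.

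**Figure D2:**
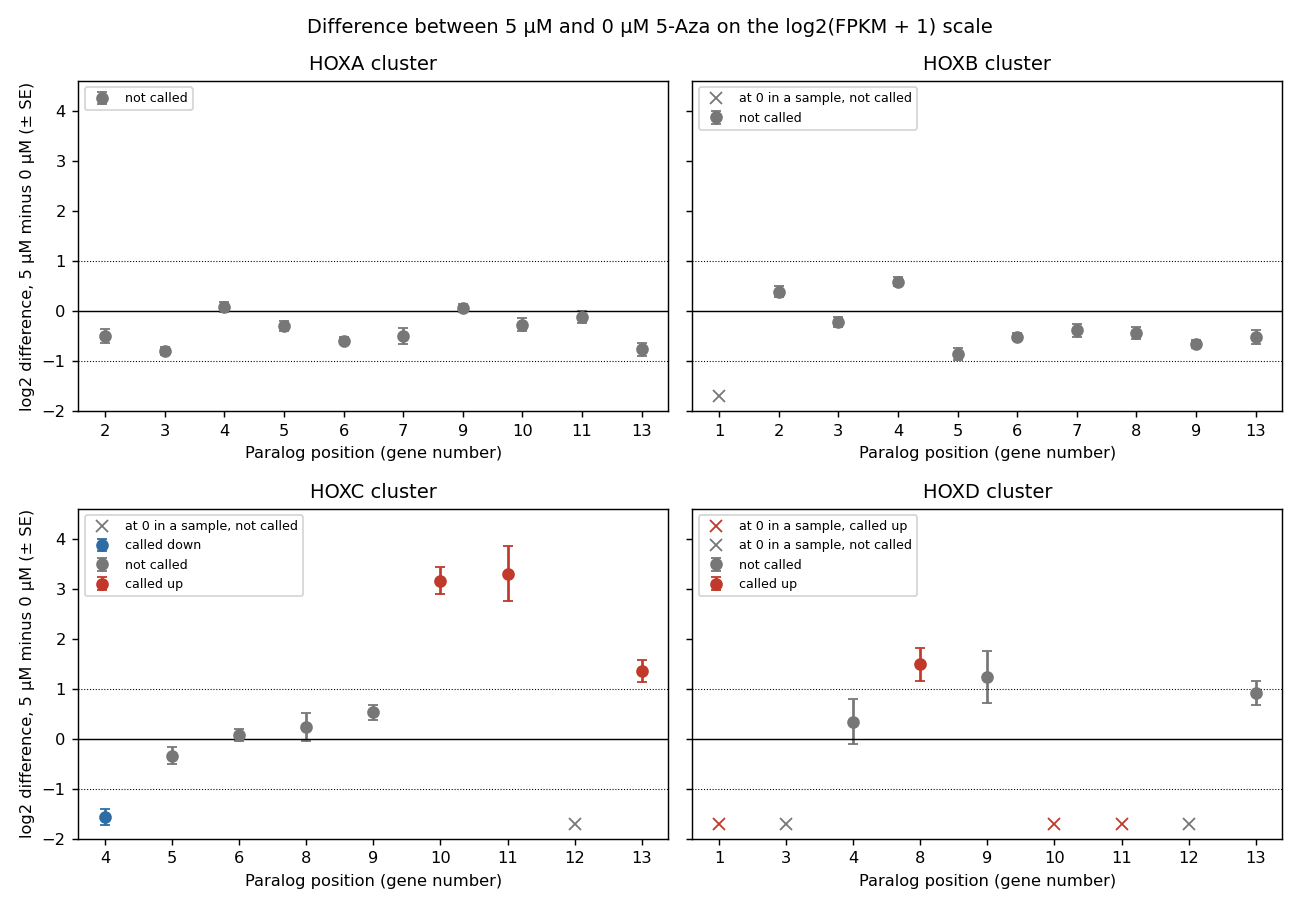
Difference between 5 µM and 0 µM on the log2(FPKM + 1) scale (vertical axis, mean with its SE from limma, n = 3 per group) by paralog position (horizontal axis), 1 panel per cluster. Dotted lines mark a log2 difference of 1 and -1, and crosses at the bottom mark genes at 0 in at least 1 of the 6 samples, for which no difference is drawn. HOXC10 and HOXC11 stand above 3, HOXC4 below -1, and all HOXA genes drawn lie between the dotted lines.

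HOXC10, a regulator of hindlimb motor neurons, was at 2184, 4049 and 2659 FPKM in the control and at 25961, 23881 and 27322 FPKM at 5 µM. These values came from 5, 14 and 13 fragments in the control and 143, 125 and 161 fragments at 5 µM. The groups did not overlap, and the log2 difference was 3.16 (SE 0.27, adjusted p = 0.00052). At 10 µM HOXC10 stood at 5841, 6088 and 7186 FPKM, from 17, 28 and 28 fragments. That was 24.8% of the 5 µM mean, and the log2 difference of -2.02 from 5 µM was called (SE 0.21, adjusted p = 0.00465). All 3 cultures at 10 µM were still above all control cultures, but the log2 difference of 1.15 did not pass (adjusted p = 0.0857). It passed with total scaling (log2 1.53, adjusted p = 0.0449), with a minimum of 10 estimated fragments (adjusted p = 0.0433) and with all 9 samples in a common fit (adjusted p = 0.0205).

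HOXC11, the next gene and also active at the tail end of the axis, gave 1672, 3599 and 783 FPKM in the control (4, 13 and 4 fragments). At 5 µM it was at 16683, 17556 and 15432 FPKM, from 96, 96 and 95 fragments. Every 5 µM culture exceeded every control culture, and the log2 difference was 3.30 (SE 0.55, adjusted p = 0.00476). Its 10 µM levels were 3289, 6660 and 1965 FPKM, from 10, 32 and 8 fragments, below all 5 µM cultures and overlapping the control. The log2 difference of -2.24 from 5 µM was called (SE 0.45, adjusted p = 0.0329). That call was lost without 5 µM replicate 1, 2 or 3 (adjusted p between 0.131 and 0.153) and without 10 µM replicate 1 (adjusted p = 0.0735).

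HOXC12 was at 0, 4767 and 1124 FPKM in the control, from 0, 6 and 2 fragments, and at 11970, 16795 and 18648 FPKM at 5 µM, from 24, 32 and 40 fragments. All 5 µM cultures exceeded all controls, yet the difference was not called (adjusted p = 0.135). The control culture at 0 decided this, since without that replicate the log2 difference was 2.75 (SE 0.63, adjusted p = 0.0218). With a pseudocount of 1000 it was 2.84 (SE 0.59, adjusted p = 0.00774). At 10 µM the levels were 4720, 5376 and 2820 FPKM (5, 9 and 4 fragments), and the log2 difference of -1.90 from 5 µM was called (SE 0.35, adjusted p = 0.0228). That call also rested on each 5 µM culture, with an adjusted p of 0.0623, 0.109 and 0.132 without replicate 1, 2 and 3.

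HOXC13, which regulates hair keratins, was the highest of these 4 neighbours in the control, at 16764, 9715 and 12922 FPKM from 48, 42 and 79 fragments. At 5 µM it reached 34701, 28572 and 35694 FPKM, from 239, 187 and 263 fragments. The groups did not overlap, and the log2 difference was 1.36 (SE 0.23, adjusted p = 0.00483). Its 10 µM cultures varied more in FPKM than those of its neighbours, at 9343, 22955 and 16010 FPKM, with replicate 2 the highest. The log2 difference of -1.12 from 5 µM was not called (adjusted p = 0.101), and without 10 µM replicate 2 it was -1.42 and called (adjusted p = 0.0204).

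HOXC4, at the 3′ end of the same cluster, moved the other way. This gene, known from the neck region and from B cells, was at 103096, 113882 and 123119 FPKM in the control and at 43663, 42155 and 30131 FPKM at 5 µM. Each 5 µM culture was below each control culture, and the log2 difference was -1.57 (SE 0.16, adjusted p = 0.000893). At 10 µM it was at 41294, 45295 and 44742 FPKM, within 1.13 times the 5 µM mean, and still called down from the control by log2 -1.37 (SE 0.14, adjusted p = 0.00367). With total scaling that 10 µM difference was -0.99, just short of the fold threshold.

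Between these ends, the HOXC genes gave smaller differences. HOXC9 was at 15504, 19016 and 19094 FPKM in the control and 29124, 25624 and 22538 FPKM at 5 µM. The groups did not overlap, and the log2 difference of 0.53 passed the adjusted p (0.0414) but not the fold threshold. HOXC5, HOXC6 and HOXC8 did not pass, with 5 µM means of 39353, 118175 and 13876 FPKM against 50554, 111675 and 11969 FPKM in the control. The summed HOXC level was 325514 ± 26066 FPKM in the control and 326887 ± 23097 FPKM at 5 µM (SD, n = 3), a difference smaller than the spread between replicates.

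**Figure D3:**
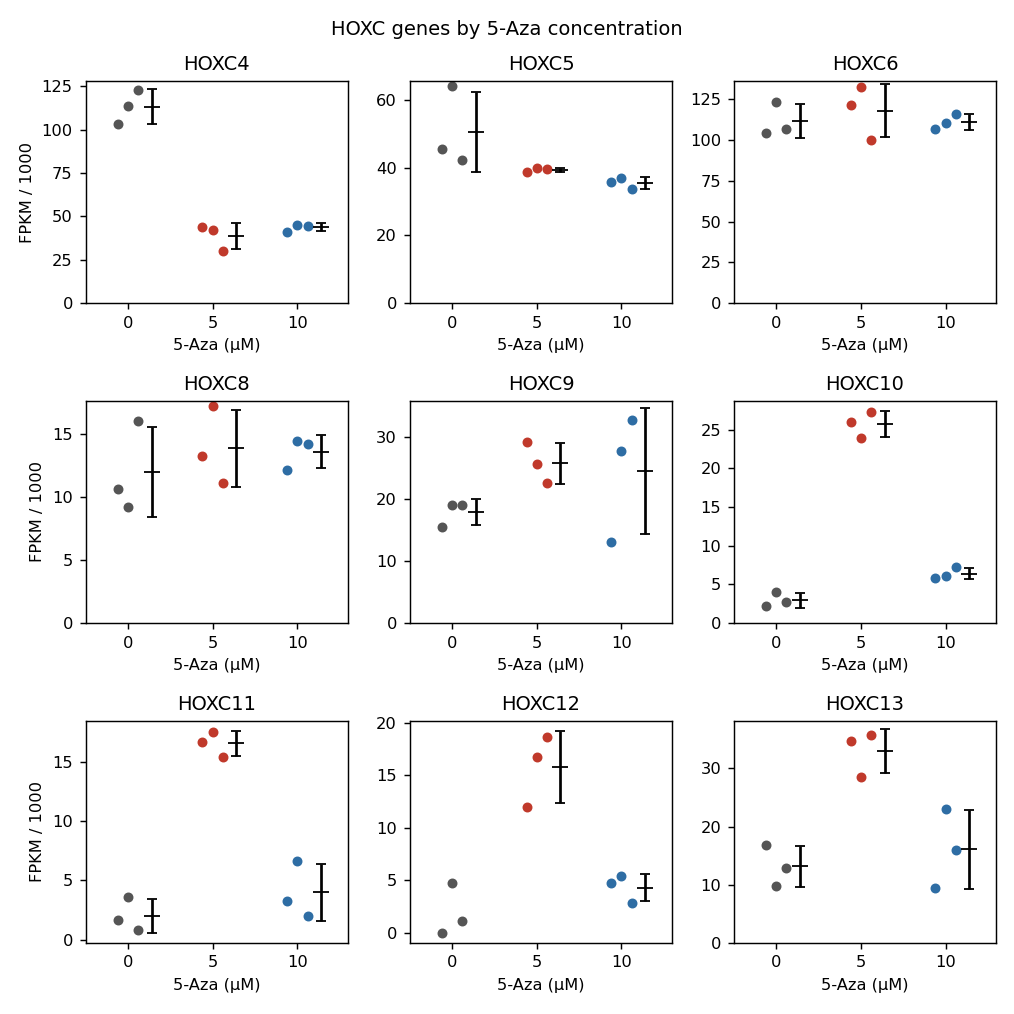
FPKM divided by 1000 (vertical axis) of the 9 HOXC genes at 0, 5 and 10 µM 5-Aza (horizontal axis), with 1 point per culture and the mean with its SD (n = 3) beside it where no replicate was at 0. HOXC10, HOXC11 and HOXC12 peak at 5 µM and are at 24.0% to 27.2% of that mean at 10 µM, whereas HOXC4 is lower at both concentrations.

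In the HOXD cluster the called genes were weakly expressed. HOXD1, at the 3′ end and known from pain-sensing neurons, was listed at 0 in all 3 controls and at 5577, 6905 and 3027 FPKM at 5 µM, from about 29.4, 34.6 and 17.1 fragments. It was called up (adjusted p = 0.000303). No fold is given for a gene listed at 0 in all cultures of a group. The 10 µM cultures gave 0, 2370 and 1017 FPKM, below every 5 µM culture, and the difference from 5 µM did not pass (adjusted p = 0.273).

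HOXD8 was detected in every culture, at 2899, 4686 and 3826 FPKM in the control and at 7240, 12193 and 13023 FPKM at 5 µM (about 9.2, 22.4 and 25.9 against 55.1, 88.3 and 106.1 fragments). No 5 µM culture overlapped the control, and the log2 difference was 1.49 (SE 0.33, adjusted p = 0.0145). The call was lost without 5 µM replicate 2 (adjusted p = 0.0553) or 5 µM replicate 3 (adjusted p = 0.0602). Cultures at 10 µM stood at 6014, 6783 and 12108 FPKM, above all controls, with a log2 difference of 1.08 from the control that did not pass (adjusted p = 0.108).

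HOXD10 and HOXD11, 5′ genes with roles in the hindlimb and the forearm, overlap in their annotated spans and rested on very few fragments. HOXD10 was at 398, 839 and 372 FPKM at 5 µM, about 2.9, 5.7 and 2.9 fragments, and was listed at 0 in all 6 other cultures. These fragments were estimated from length, and the true numbers may be smaller. HOXD11 was at 507, 1868 and 237 FPKM at 5 µM, from 2, 7 and 1 fragments, at 0 in the control, and at 0, 0 and 359 FPKM at 10 µM. Both were called up (adjusted p = 0.00124 and 0.00181). With a pseudocount of 1000 neither was called, with log2 differences of 0.61 for HOXD10 and 0.81 for HOXD11. HOXD10 was also called down from 5 µM to 10 µM (adjusted p = 0.012), a call lost with the pseudocount of 1000 (adjusted p = 0.0634) and without 5 µM replicate 3 (adjusted p = 0.061).

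HOXD13, a gene of the digits and the hindgut, had the highest HOXD level in the control, at 7574, 8360 and 5067 FPKM from 21, 35 and 30 fragments. At 5 µM it was at 13044, 12149 and 13455 FPKM from 87, 77 and 96 fragments, above every control culture. Its log2 difference of 0.91 (SE 0.24, adjusted p = 0.027) fell under the fold threshold, and it was called with total scaling (log2 1.20) and without control replicate 2 (log2 1.05). HOXD9 was at 912, 2416 and 854 FPKM in the control and at 2275, 3392 and 3190 FPKM at 5 µM, so the groups overlapped, and it did not pass (adjusted p = 0.11). HOXD3 and HOXD4 did not pass either, with at most 11 and 27 fragments in a 5 µM culture.

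HOXD12 was listed at 0 in all 5 µM cultures and above 0 in 1 control and 1 culture at 10 µM. The estimate from length was about 7.9 fragments each, and the true number may be smaller. The neighbours HOXD11 and HOXD13 on either side of it were above 0 in all 5 µM cultures. The summed HOXD level was 16594 ± 1452 FPKM in the control, 39203 ± 6225 FPKM at 5 µM and 25158 ± 3117 FPKM at 10 µM (SD, n = 3). The number of HOXD genes above 0 in a culture was 4, 4 and 6 in the control, 8 in each 5 µM culture, and 5, 6 and 7 at 10 µM. A fragment was worth the least FPKM in the 5 µM libraries, and the part of depth in these numbers was not tested.

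**Figure D4:**
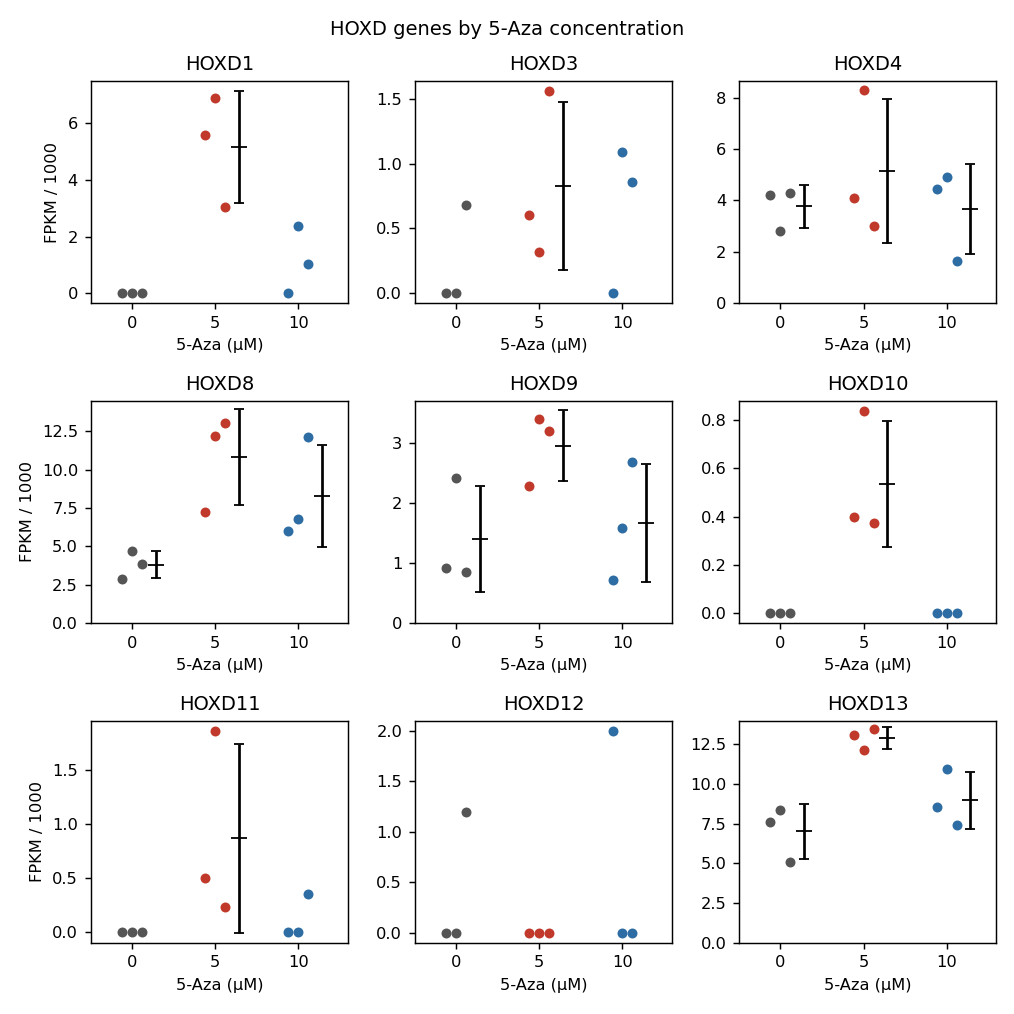
FPKM divided by 1000 (vertical axis, scaled per gene) of the 9 HOXD genes at 0, 5 and 10 µM 5-Aza (horizontal axis), with 1 point per culture and the mean with its SD (n = 3) where no replicate was at 0. HOXD1, HOXD10 and HOXD11 are at 0 in all controls and above 0 in all 5 µM cultures, and HOXD12 is at 0 in all 5 µM cultures.

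In the HOXA cluster no gene was called at 5 µM, and 4 of 11 had an adjusted p of at most 0.05 with a lower level (HOXA2, HOXA3, HOXA6 and HOXA13), or 36.4% against 17.7% of all genes. HOXA3, which patterns the thymus and parathyroid, was at 173548, 173489 and 153329 FPKM in the control and 98695, 96410 and 90403 FPKM at 5 µM. The groups were well apart, and the log2 difference was -0.81 (SE 0.08, adjusted p = 0.000765). HOXA6 was at 236370, 202033 and 220474 FPKM in the control and at 146818, 145477 and 144838 FPKM at 5 µM, with a log2 difference of -0.59 (SE 0.08, adjusted p = 0.00166). HOXA2, a gene of the hindbrain and jaw arches, had a log2 difference of -0.50 (adjusted p = 0.0389).

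HOXA13, a gene of the hindgut and the digits, was lower at both concentrations. It was at 138501, 146151 and 112501 FPKM in the control, at 71076, 87698 and 74679 FPKM at 5 µM, and at 44582, 64507 and 28819 FPKM at 10 µM. No culture of a group overlapped a culture of another group. The log2 difference from the control was -0.76 at 5 µM (SE 0.13, adjusted p = 0.00542), under the fold threshold, and -1.59 at 10 µM (SE 0.29, adjusted p = 0.0171), which was called. Without control replicate 1, control replicate 2 or 10 µM replicate 1, the 10 µM call was lost, with an adjusted p of 0.0572, 0.0708 and 0.0626.

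The other HOXA genes described here did not pass at 5 µM. HOXA5 and HOXA7 lay below the control in every 5 µM culture (adjusted p = 0.0607 and 0.0504), and HOXA4, HOXA9, HOXA10 and HOXA11 overlapped it. At 10 µM all 11 HOXA genes had a lower mean than the control, and HOXA3, HOXA9, HOXA11 and HOXA13 passed the adjusted p. HOXA9, known from blood stem cells and leukaemia, was at 189351, 219127 and 192577 FPKM at 10 µM, below all control cultures (273713 to 309862 FPKM) and all 5 µM cultures (283683 to 325636 FPKM). It was the only HOXA gene that passed the adjusted p between 10 µM and 5 µM, with a log2 difference of -0.58 (adjusted p = 0.0421). With median-of-ratios scaling, which raises 10 µM replicates 1 and 3, none of the HOXA genes passed there, and at 10 µM against the control 9 of 11 were lower.

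In the HOXB cluster 5 of 10 genes passed the adjusted p with a lower level at 5 µM, against 17.7% of all genes. They were HOXB5, HOXB6, HOXB8, HOXB9 and HOXB13. Another 2 passed with a higher level (HOXB2 and HOXB4), against 21.3% of all genes, and none of the 10 was called. With total scaling 2 of the 10 passed as lower (HOXB5 and HOXB9) and 3 as higher (HOXB1, HOXB2 and HOXB4). HOXB9 fell from the control values above to 827084, 933952 and 845016 FPKM, with a log2 difference of -0.66 (SE 0.08, adjusted p = 0.00123). At 10 µM it was at 680927, 880108 and 704950 FPKM, and it was the highest HOX gene in all 9 cultures. HOXB5, which acts in the nerve cells of the gut, was at 330518, 409219 and 411511 FPKM in the control and at 213692, 237119 and 184456 FPKM at 5 µM. Its log2 difference was -0.86 (SE 0.13, adjusted p = 0.00311), the largest fall in this cluster at 5 µM.

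HOXB4, known from blood stem cells, rose, from 97614, 116812 and 107518 FPKM to 161274, 163485 and 158241 FPKM at 5 µM. The groups were apart, and the log2 difference was 0.59 (SE 0.08, adjusted p = 0.0024). At 10 µM it was at 136800, 161037 and 202873 FPKM, also above all controls, with a log2 difference of 0.62 and an adjusted p of 0.0503. With median-of-ratios and with total scaling, that difference passed the adjusted p. HOXB2, a hindbrain gene, was at 60390, 49450 and 54507 FPKM in the control and at 76000, 75416 and 64002 FPKM at 5 µM (log2 0.39, adjusted p = 0.0384). HOXB3, whose annotated span covers HOXB4, overlapped between the groups and did not pass.

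HOXB1, the gene at the 3′ end that marks a hindbrain segment, was at 952, 0 and 0 FPKM in the control (1, 0 and 0 fragments) and at 3563, 2500 and 4071 FPKM at 5 µM (9, 6 and 11 fragments). The 10 µM cultures were at 0, 948 and 0 FPKM. All 5 µM cultures were above all others, and the difference from the control did not pass (adjusted p = 0.0516). It was called with median-of-ratios scaling (adjusted p = 0.0492), with total scaling (adjusted p = 0.0425) and without control replicate 1 (adjusted p = 0.000747).

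**Figure D5:**
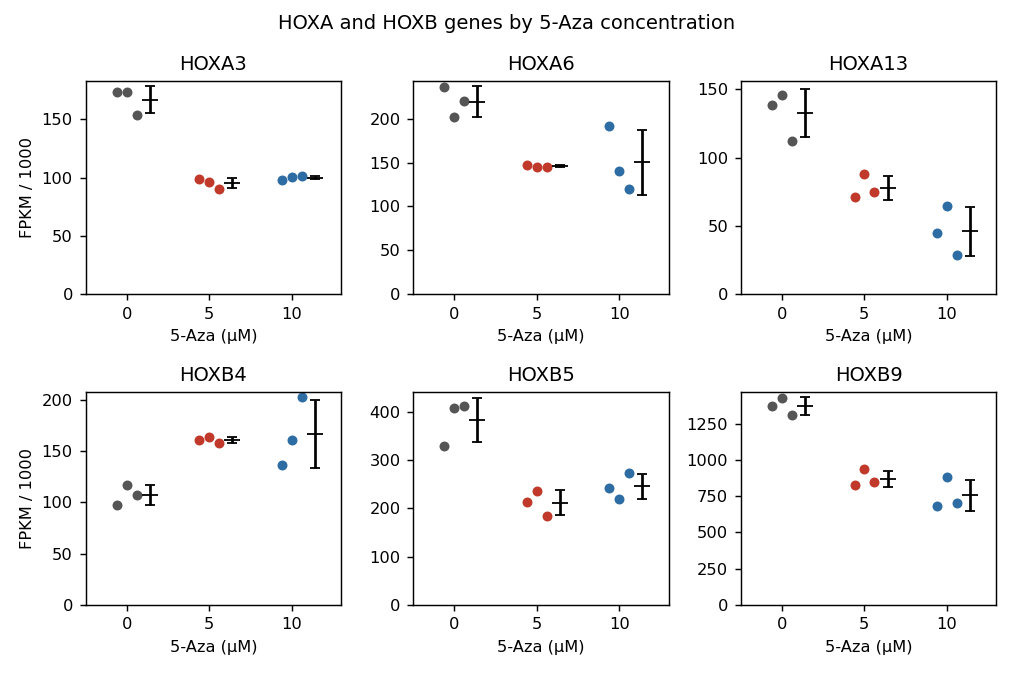
FPKM divided by 1000 (vertical axis, scaled per gene) of 6 HOXA and HOXB genes at 0, 5 and 10 µM 5-Aza (horizontal axis), with 1 point per culture and the mean with its SD (n = 3). HOXA3, HOXA6, HOXA13, HOXB5 and HOXB9 are below all controls at 5 µM, and HOXB4 is above them.

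Lower levels across HOXA and HOXB have to be read against the scale of the libraries. Over the 15418 genes above 0 in all 6 cultures, the median log2 difference between 5 µM and 0 µM was -0.04 with FPKM as deposited and 0.25 with total scaling. The HOXA median moved from -0.30 to -0.01 and the HOXB median from -0.41 to -0.13. HOXA3, HOXA6, HOXA13, HOXB5 and HOXB9 passed as lower on both scales and with median-of-ratios scaling. HOXA2, HOXB6, HOXB8 and HOXB13 did not pass with total scaling, and HOXA9 passed there as higher. The calls of HOXC4, HOXC10, HOXC11, HOXC13, HOXD1, HOXD8, HOXD10 and HOXD11 held on all 3 scales. For HOXD1, HOXD10 and HOXD11, listed at 0 in all controls, scaling leaves the zeros in place. Their calls could thus hardly be lost in this way.

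Paralogs at the same position did not all move alike. At position 13, HOXA13 and HOXB13 were lower at 5 µM (log2 -0.76 and -0.52, adjusted p = 0.00542 and 0.0304), and HOXC13 and HOXD13 were higher (log2 1.36 and 0.91, adjusted p = 0.00483 and 0.027). HOXB13, known from the prostate and the distal colon, was at 29437, 37560 and 28204 FPKM in the control and at 21668, 21384 and 22668 FPKM at 5 µM. At position 4, HOXC4 fell, HOXB4 rose, and HOXA4 and HOXD4 did not pass. At positions 10 and 11, the HOXC and HOXD members were called up, whereas HOXA10 and HOXA11 stood at 378219 and 181873 FPKM at 5 µM against 454137 and 198385 FPKM in the control and did not pass. The difference between paralogs was not tested.

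Between 10 µM and 5 µM, 4 of 39 HOX genes were called down (10.3%), against 4.82% of 20085 genes tested, and none was called up, against 0.129%. At an unadjusted p under 0.05, no HOX gene was higher in limma. The 4 were HOXC10, HOXC11, HOXC12 and HOXD10. HOXC10 kept its call in every alternative tried, and the other 3 lost it in some. With all 9 samples in a common fit HOXC11 and HOXC12 lost it (adjusted p = 0.058 and 0.646), as they did with limma's treat, which tests against the fold itself (adjusted p = 0.397 and 0.446). The count ranged from 1 to 9 when 1 culture was left out, with 9 without 10 µM replicate 2, 1 without 5 µM replicate 3 and 2 without 5 µM replicate 1 or 2. By the adjusted p alone, 5 were lower (12.8%, against 5.85% of all genes) and 0 higher, against 0.319%. The 10 µM cultures lay below all 5 µM cultures for 13 HOX genes (33.3%, against 25.3%) and above them for 0, against 4.37%. The median log2 difference over all genes tested was -0.31, and over the HOX genes -0.27.

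Between 10 µM and 0 µM, 38 HOX genes could be tested, HOXD10 being at 0 throughout. Called down were HOXA13 and HOXC4 (5.26%), against 3.40% of 18928 genes. No HOX gene was called up, against 4.07% of all genes, and HOXB4, HOXC10 and HOXD8 lay above the control in all cultures with an unadjusted p under 0.05 in limma. By the adjusted p alone, 8 were lower (21.1%, against 9.71%) and 0 higher, against 5.39%. These numbers depended on the scale. HOXA9 and HOXB5 did not pass as lower with median-of-ratios or total scaling, nor did HOXA3 with total scaling. HOXB4 passed as higher on both of these scales, and HOXC10 with total scaling. Of the 10 HOXB genes, 9 were lower as deposited and 5 with total scaling. The 10 µM cultures lay below all controls for 15 HOX genes (39.5%, against 26.7%) and above them for 3 (7.89%, against 14.4%). The control cultures serve in both comparisons with 0 µM, and the 5 µM cultures in both comparisons with 5 µM, so the 3 sets of values are not independent.

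Noncoding RNAs of the clusters were examined as a list of 16, of which 12 could be tested at 5 µM. HOXD-AS1, a long noncoding RNA of the HOXD cluster, was at 849, 1546 and 1590 FPKM in the control and at 12881, 15555 and 17154 FPKM at 5 µM. It was called up with a log2 difference of 3.56 (SE 0.34, adjusted p = 0.000714), was at 5344, 7820 and 3492 FPKM at 10 µM, and was called up there too (log2 2.04, adjusted p = 0.0418). MIR10A was also called up from 0, but rested on 2 fragments or fewer in a culture and is not read further. The other 10 did not pass both limits. Thus 2 of 12 were called up, where 14.1% of all genes were, and none was called down, where 2.17% were. HOTAIR, chosen after its values were seen because it lies on the opposite strand at chr12:54356092-54368740 and shares 1831 bases with the span of HOXC11, was at 106094, 106708 and 89603 FPKM in the control and 60102, 88737 and 70017 FPKM at 5 µM (adjusted p = 0.055). Whether the counting used strand is not given in the sources used here, so fragments of such antisense pairs cannot be told apart. At 10 µM, none of 12 was called against 5 µM, where 0.129% of all genes were called up and 4.82% down. Against the control, 1 of 11 was called up and 1 down, where 4.07% and 3.4% of all genes were.

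Of 16 neighbours of the clusters tested at 5 µM, TTLL6, a tubulin glutamylase gene beyond HOXB13, was called up (log2 1.59, SE 0.40, adjusted p = 0.0233), against 14.1% of all genes, and none was called down, against 2.17%. Its levels were 1963, 1950 and 1072 FPKM in the control and 6527, 3864 and 4448 FPKM at 5 µM. The homeobox gene EVX1 beyond HOXA13 was at 927, 1228 and 0 FPKM in the control and at 1156, 1622 and 540 FPKM at 5 µM, and did not pass. EVX2, beyond HOXD13, was above 0 in only 1 of those 6 cultures. Neighbours on the other sides, SKAP2, SKAP1, SMUG1 and MTX2, had 5 µM means of 184784, 98790, 310428 and 221791 FPKM against 217421, 175929, 301873 and 292078 FPKM in the control. SKAP1 and MTX2 passed the adjusted p as lower (0.00982 and 0.015) and none of the 4 was called. The median log2 difference of the 16 was -0.18, against 0.14 over all genes. None of the tested neighbours was called in either comparison with 10 µM.

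The TALE homeodomain proteins bind DNA together with HOX proteins, and 3 of their 9 genes were called up at 5 µM, against 14.1% of all genes. Called down was 1 of the 9, against 2.17%. MEIS3 rose from 7056, 4565 and 4546 FPKM to 24771, 17627 and 23120 FPKM (log2 2.04, SE 0.26, adjusted p = 0.00162). PBX4 (log2 1.67, adjusted p = 0.00247) and MEIS1 (log2 1.53, adjusted p = 0.0106) were called up as well. At 10 µM 2 were called up and 1 down against the control, where 4.07% and 3.4% of all genes were. None was called against 5 µM.

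The caudal genes act upstream of HOX genes in the hindgut. Of this list of 6 caudal and ParaHox genes, 3 could be tested and CDX1, an intestinal transcription factor, was called up at 5 µM, from 3424, 4211 and 4352 FPKM to 15250, 18402 and 19007 FPKM (log2 2.14, SE 0.21, adjusted p = 0.00073). That is 1 of 3, against 14.1% of all genes called up. CDX2, the other caudal gene tested, moved the other way. It was at 55631, 63297 and 52441 FPKM in the control and at 32318, 38847 and 32150 FPKM at 5 µM, below all controls (log2 -0.73, adjusted p = 0.00513), and was called down at 10 µM against the control (log2 -1.38, adjusted p = 0.00996). PDX1 did not pass at 5 µM. At 10 µM CDX1 varied between 770 and 8048 FPKM.

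Trithorax and Polycomb genes, which keep HOX genes active or silent, gave no call at 5 µM. None of 24 was called, where 14.1% of all genes were called up and 2.17% down, and the median log2 difference of the list was -0.11. Members passed the adjusted p in both directions under the fold threshold. The genes that passed in limma are named here after their values were seen. Of the Polycomb genes, EZH2 (log2 0.70, adjusted p = 0.0023), CBX8 (log2 0.74, adjusted p = 0.00343) and CBX2 (log2 0.79, adjusted p = 0.0274) were higher. PHC2 (log2 -0.98, adjusted p = 0.000765) and BMI1 (log2 -0.78, adjusted p = 0.000883) were lower. Of the other members, KDM6B was higher (log2 0.84, adjusted p = 0.00377) and WDR5 lower (log2 -0.37, adjusted p = 0.0181). Of all genes, 21.3% passed as higher and 17.7% as lower. At 10 µM none was called against 5 µM, and PHC2 and BMI1 were called down against the control, where 3.4% of all genes were.

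Among markers of other cell types, several were called up at 5 µM, where 14.1% of all genes and 28% of genes with a control mean below 20000 FPKM were. Of 6 fibroblast markers 4 were called up, with a summed level of 22549 to 32355 FPKM in the control and 82215 to 88739 FPKM at 5 µM, and COL1A2, COL3A1 and PDGFRB were at 0 in 2 of 3 controls. Of 5 leukocyte markers 2 were called up (CD68 and CD3E). CD68 was at 121931 to 128554 FPKM in the control and made up most of the list, while CD14 did not pass. The list had sums of 158210 to 176711 and 689911 to 735131 FPKM, and CD3E was at 0 in all controls. Of 4 endothelial markers 3 were called up, with sums of 1901 to 5031 and 9843 to 12404 FPKM, and CDH5 and KDR were at 0 in all controls. The summed colon epithelium markers went from 82854663 to 99292368 FPKM in the control to 35216442 to 39881222 FPKM at 5 µM, a sum carried mostly by KRT8 and KRT18. Those 2 of the 10 were called down, CEACAM5 (log2 1.59, adjusted p = 0.000288) and CDX1 were called up, and EPCAM and CDH1 did not pass. The part of these changes in the HOX values was not tested.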

How the data were processed

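RNA was extracted from 9 HT-29 cultures and sequenced as paired-end libraries (TruSeq kit). The authors aligned the reads with TopHat to hg19 and computed FPKM per gene with Cufflinks, and these deposited FPKM values are the unit used here. The annotation version and library term are not given in the sources used here. FPKM of repeated symbols were summed over 24934 entries. Values were compared as log2(FPKM + 1) with limma 3.58.1 in R 4.3.3 (lmFit, eBayes with a trend) on the 6 samples of each comparison, for genes reaching 10 FPKM in a sample. For HOXD11, 1 fragment was worth 237 FPKM in 5 µM replicate 3. The minimum of 10 FPKM and the pseudocount of 1 thus lie far below 1 fragment for such a gene, and 1 fragment was enough to admit it. P-values were adjusted by Benjamini-Hochberg over all genes tested. A log2 change is on the log2(FPKM + 1) scale. For a gene at 0 in a sample it depends on the pseudocount and is no bound. The exact permutation test of 3 against 3 cannot go below 0.1 and was not used for calls. Fragments were recovered from the step of low values (12 microRNA genes of 110 nucleotides, 46 of 46 values whole within 0.01), so depth is known only in relative terms, and intervals for counting error are not given. Replicate numbers come from the labels as biological replicates. Same-numbered samples did not deviate together. Within groups, a chi-square per gene on estimated fragments was 8.77 between control replicates 1 and 2. The other pairs gave 30.32 to 105.04, the highest between control replicates 2 and 3. The source of this difference was not tested. Positions and strands are from the GRCh37 annotation, promoter sequences from RefSeq. All 39 HOX genes enter the counts, 1 of them and some listed genes are not reported singly here, and from other lists the genes called at 5 µM (at most 6 a list) and those at cluster ends, with added names marked. Members, lists and tests were chosen with earlier results of these data known. The script was tested on simulated data. Alternatives were other pseudocounts, filters, scalings, fits and left-out replicates.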

Additional observations from a re-analysis of the deposited data

How the results depend on the processing

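At 5 µM against 0 µM, the 7 HOX genes called up became 11 and the 1 called down became 10 without the fold threshold, and 0 were called down with limma's treat, which tests against the fold itself. HOXC13 and HOXD8 also lost their call up with treat (adjusted p = 0.47 and 0.506). Between 10 µM and 5 µM, the 4 called down became 2 with all 9 samples in a common fit and 2 with treat. At 10 µM against 0 µM, 0 called up became 1 with a minimum of 10 estimated fragments, 2 with total scaling and 1 with all 9 samples in a common fit, and 2 called down became 1 with total scaling, 8 without the fold threshold and 0 with treat. With 1 culture left out, calls ranged from 6 to 9 up and stayed at 1 down at 5 µM against 0 µM. They ranged from 1 to 9 down between 10 µM and 5 µM. They ranged from 0 to 1 up and from 1 to 4 down at 10 µM against 0 µM. HOXC5 differed between 10 µM and 5 µM by log2 -0.15 as deposited and by 0.052 with median-of-ratios scaling, not past the threshold in either. Of 1041 alternative values of 58 gene differences, 969 kept their direction and side of the threshold, 42 passed it newly, 29 no longer passed and 1 reversed. These counts include alternatives whose outcome was largely fixed. No HOX symbol was repeated, so taking the largest entry of repeated symbols left HOX levels unchanged, and dropping the fold threshold could only add calls. The causes were not tested.

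The replicate numbers did not pair the samples: deviations of same-numbered samples correlated between -0.07 and 0.09 over 9 pairs, and those of other pairs between -0.16 and 0.10. With the number as a block, 1 HOX gene (HOXC10) was called down between 10 µM and 5 µM, HOXC11, HOXC12 and HOXD10 no longer passing (adjusted p = 0.0578, 0.0663 and 0.0642), and the counts of the other comparisons did not move. Few fragments limit HOXB1, HOXC12, HOXD3, HOXD10, HOXD11 and HOXD12.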

Other observations

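Retinoic acid induces HOX genes of the 3′ ends in the embryo, and a list of 16 genes of its pathway was examined, of which 14 could be tested at 5 µM. ALDH1A2 and ALDH1A3, which make retinoic acid, were among the 3 genes called up, against 14.1% of all genes, and 2 were called down, STRA6 and DHRS3, a retinol transporter and a retinal reductase, against 2.17%. ALDH1A3 was at 29035, 28614 and 28392 FPKM in the control and at 77734, 86681 and 108677 FPKM at 5 µM (limma, log2 1.65, SE 0.14, adjusted p = 0.00046). ALDH1A2 was listed at 0 in all 3 controls and was at 2338, 1782 and 3859 FPKM at 5 µM (adjusted p = 0.000427). DHRS3 went from 2041760, 1964720 and 1860610 FPKM to 843320, 845482 and 772303 FPKM (log2 -1.25, SE 0.07, adjusted p = 0.000202). STRA6 had a log2 difference of -1.11 (adjusted p = 0.000887). The median of the list was -0.38, against 0.14 over all genes tested. At 10 µM, 2 were called down against 5 µM, where 4.82% of all genes were. Against the control, 1 was called up and 3 down, where 4.07% and 3.4% of all genes were.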
